A study of Mus musculus with 12 samples.

Results

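The C-type lectin receptors examined here are 9 genes of the mouse macrophage surface, taken by name: Clec4d, Clec4e, Clec4n, Clec5a, Clec7a, Clec12a, Clec4a1, Clec4a2 and Clec4a3. Matching these names to the gene names of the count table found 8 of the 9 among 21899 genes. All 8 passed the filter on low counts, which kept 11656 genes for testing. Clec7a, which encodes the beta-glucan receptor Dectin-1, was not analysed here. RNA was measured in primary macrophages grown from wild-type mouse marrow, in 12 libraries. They fall into 4 groups of 3 libraries each: cells given both PgLPS and CS-PA/CNP, cells given PgLPS, cells given CS-PA/CNP, and untreated control cells. The labels expand neither agent's name and give no dose, no time and no age or number of mice, and the series title concerns a hydrogel for periodontitis and hypertension. Since no source states that the 3 libraries of a group came from separate mice or cultures, a p-value here reflects only the spread among such libraries, which may be technical.

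C-type lectin receptors bind sugars, lipids and debris of microbes or dying cells through a lectin-like domain outside the cell. Many of the activating receptors among them carry no signalling motif of their own. These pair with small adaptor chains, Fcer1g or Tyrobp, which recruit the kinase Syk, and Syk then acts through Card9, Bcl10 and Malt1 on NF-kB. Clec4e (Mincle) binds mycobacterial cord factor and a protein released by dead cells, and Clec4d (MCL) forms a complex with it. Clec4n (Dectin-2) binds mannose-rich fungal walls. All 3 couple to Fcer1g, whereas Clec5a (MDL-1) pairs with Tyrobp. Clec12a (MICL) and Clec4a2 (DCIR) carry an inhibitory motif that recruits phosphatases such as Ptpn6 and Ptpn11. Clec4a1 and Clec4a3 are close relatives of Clec4a2.

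All 8 genes lie on chromosome 6. In RefSeq gene order, Clec4n, Clec4d and Clec4e are direct neighbours, Clec4a1 and Clec4a3 are direct neighbours, and Clec4a2 stands between Clec4b1 and Clec4b2. RefSeq's promoter table for GRCm38.p6 held 8 start sites of 7 of the genes, and none for Clec4n. The 250 bases before 3 of these start sites are shown, because Clec4e was the gene with the largest response to PgLPS, Clec4d is its partner and neighbour, and Clec12a was the gene that was lower with CS-PA/CNP. The Clec4e window is chr6:123289872-123290121 on the minus strand, the Clec4d window chr6:123261857-123262106 on the plus strand and the Clec12a window chr6:129349994-129350243 on the plus strand. They are written 5′ to 3′ on the gene's strand and end at the base before the start site. Capitals mark GAGGAA, the core bound by the myeloid factor PU.1, on either strand, so that TTCCTC is the same match read on the other strand.
Clec4e: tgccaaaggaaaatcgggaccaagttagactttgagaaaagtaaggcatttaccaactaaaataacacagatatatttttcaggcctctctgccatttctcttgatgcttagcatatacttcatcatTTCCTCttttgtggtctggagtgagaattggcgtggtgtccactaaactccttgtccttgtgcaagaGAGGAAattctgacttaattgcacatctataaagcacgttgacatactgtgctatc
Clec4d: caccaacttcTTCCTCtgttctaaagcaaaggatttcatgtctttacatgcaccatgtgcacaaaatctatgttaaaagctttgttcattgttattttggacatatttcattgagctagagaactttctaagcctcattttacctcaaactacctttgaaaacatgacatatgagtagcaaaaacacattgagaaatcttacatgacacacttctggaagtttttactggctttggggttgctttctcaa
Clec12a: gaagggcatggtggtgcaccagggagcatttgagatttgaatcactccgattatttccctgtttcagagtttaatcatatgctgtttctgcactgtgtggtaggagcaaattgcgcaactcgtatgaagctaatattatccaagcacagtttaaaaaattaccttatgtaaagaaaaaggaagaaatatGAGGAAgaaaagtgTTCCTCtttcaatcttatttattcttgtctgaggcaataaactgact

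The PU.1 core GAGGAA was found in at least 1 window of 6 of the 7 genes, all but Clec4a2. Of the 2 windows of Clec4a3, only 1 held it. Counted by window and not by gene, it was in 23.25% of 32851 such windows of all genes. Clec4e held it 123 to 118 and 56 to 51 bases before the start, Clec12a 61 to 56 and 47 to 42 bases before, and Clec4d once, 240 to 235 bases before. The C/EBP pattern TTGCNNAA was found in Clec4e and Clec12a, and in 9.564% of all windows. In Clec4e it lay 66 to 59 bases before the start, next to a PU.1 core without overlapping it. Of the other patterns searched on both strands, the kappa B form (GGG, then 5 bases of any kind, then CC) was found in Clec4a1 alone (45.8% of all windows), the AP-1 form TGANTCA in Clec12a alone (6.749%), and the interferon-stimulated response element (GAAA, then 2 bases of any kind, then GAAA) in none of the 7 (2.977%). The kappa B matches in Clec4a1, on opposite strands, overlapped each other, and the C/EBP site in Clec12a read the same on both strands. No matches of different patterns overlapped. A match describes letters in these windows and is not evidence of a bound factor.

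Libraries held 14992707 to 20082900 reads. The 8 receptor genes together took 0.376% to 0.404% of a library's reads with both agents, 0.488% to 0.509% with PgLPS, 0.177% to 0.191% with CS-PA/CNP and 0.125% to 0.132% in control. Levels are CPM, reads per 1e+06 of the library total after multiplying it by a TMM factor, which was 0.890 to 0.901 with both agents, 0.853 to 0.875 with PgLPS, 1.11 to 1.12 with CS-PA/CNP and 1.15 to 1.16 in control. All 9 macrophage markers had reads in every group, with summed levels of 28585 to 30040 CPM with both agents, 29693 to 32065 with PgLPS, 23097 to 24727 with CS-PA/CNP and 20304 to 21716 in control. Lyz2 was the highest of the 9 in every group, at a mean of 17569 CPM with PgLPS and 15401 in control. The mean of Cd68 was lower with PgLPS than in control, at 1199 against 1494 CPM, and those of the other 8 were higher. Markers of other cells were low but moved with the groups. The 10 neutrophil genes summed to 190 to 226 CPM with both agents, 251 to 266 with PgLPS, 122 to 165 with CS-PA/CNP and 141 to 167 in control. S100a9 had the highest mean of these in every group, at 102 CPM with PgLPS and 59.8 in control. The means of S100a8, Ngp, Mmp8, Camp and Cxcr2 were likewise higher with PgLPS than in control. Those of Ly6g, Elane, Mpo and Retnlg were lower with PgLPS than in control, and at most 1.21 CPM in any group. The 8 dendritic cell genes summed to 4.80 to 6.58 CPM with both agents, 3.18 to 6.18 with PgLPS, 1.08 to 1.66 with CS-PA/CNP and 1.01 to 2.01 in control, with Cd209a at 0 reads in both PgLPS-treated groups. The 6 stromal genes summed to 1.91 to 4.62 CPM with both agents, 5.82 to 53.5 with PgLPS, 0.608 to 2.10 with CS-PA/CNP and 0.472 to 2.72 in control, and the highest value was that of PgLPS library 1. The 5 B cell genes summed to at most 5.98 CPM and the 6 T and NK cell genes to at most 1.79 CPM in any library, with Cd3d at 0 reads in all 12. The part of these cells in the receptor results was not tested, and in bulk RNA fewer cells of a type and less RNA per cell cannot be told apart.

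All 8 receptor genes were higher with PgLPS than in control, by 1.93-fold to 65.7-fold, and all 8 were also higher with both agents than in control or than with CS-PA/CNP alone. CS-PA/CNP alone went with higher levels of 7 genes and a lower level of Clec12a. Beside PgLPS, CS-PA/CNP went with lower Clec4e, Clec5a and Clec12a and higher Clec4n, and the other 4 genes were not called. A gene is called where its Benjamini-Hochberg (BH) adjusted p in edgeR's quasi-likelihood test over all 11656 genes is under 0.05.

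**Figure D1:**
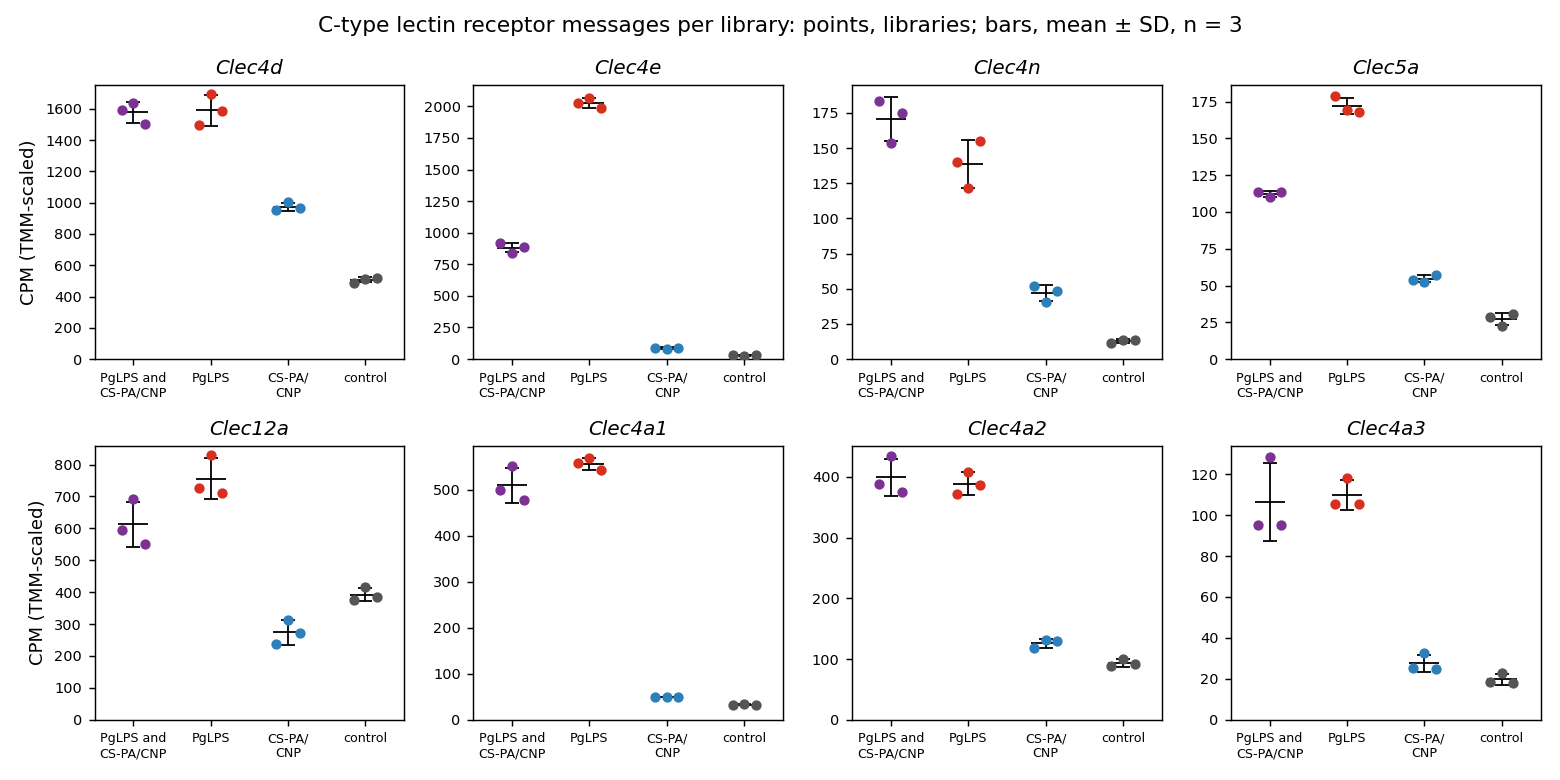
Level of each receptor gene in every library, in TMM-scaled CPM on an axis from 0 (points, libraries; bars, mean ± SD, n = 3), for both agents, PgLPS, CS-PA/CNP and control from left to right. All 8 genes were higher in both groups given PgLPS than in the other groups, while Clec4e stood at 881 CPM with both agents against 2027 CPM with PgLPS.

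In PgLPS against control, the 8 of 8 genes higher compare with 32.2% of all tested genes higher and 31.6% lower. Their median log2 fold change was 2.57, against 0.00 over all tested genes. In CS-PA/CNP against control, 7 of 8 were higher and 1 lower, where 6.67% of tested genes were higher and 5.61% lower, and the receptor median was 0.77. In both agents against PgLPS, 1 of 8 was higher and 3 lower, where 9.42% of tested genes were higher and 10.0% lower, and the median was −0.09. Both agents against control called 8 of 8 higher (29.7% higher and 28.4% lower among tested genes; receptor median 2.26), and both agents against CS-PA/CNP also called 8 of 8 higher (26.6% and 25.4%; median 1.76). These comparisons share libraries, so their counts are not independent of each other. The interaction, the effect of CS-PA/CNP beside PgLPS minus its effect in control cells, was lower for 6 of 8 genes, with the other 2 not called, where 7.46% of tested genes were higher and 8.34% lower, and the receptor median was −0.84. Scaling by library totals in place of TMM shifted the all-gene median of log2 differences by −0.41 in PgLPS against control, −0.36 in both agents against control and −0.32 in both agents against CS-PA/CNP. All 8 receptor genes were still called higher in these 3 comparisons under that scaling.

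**Figure D2:**
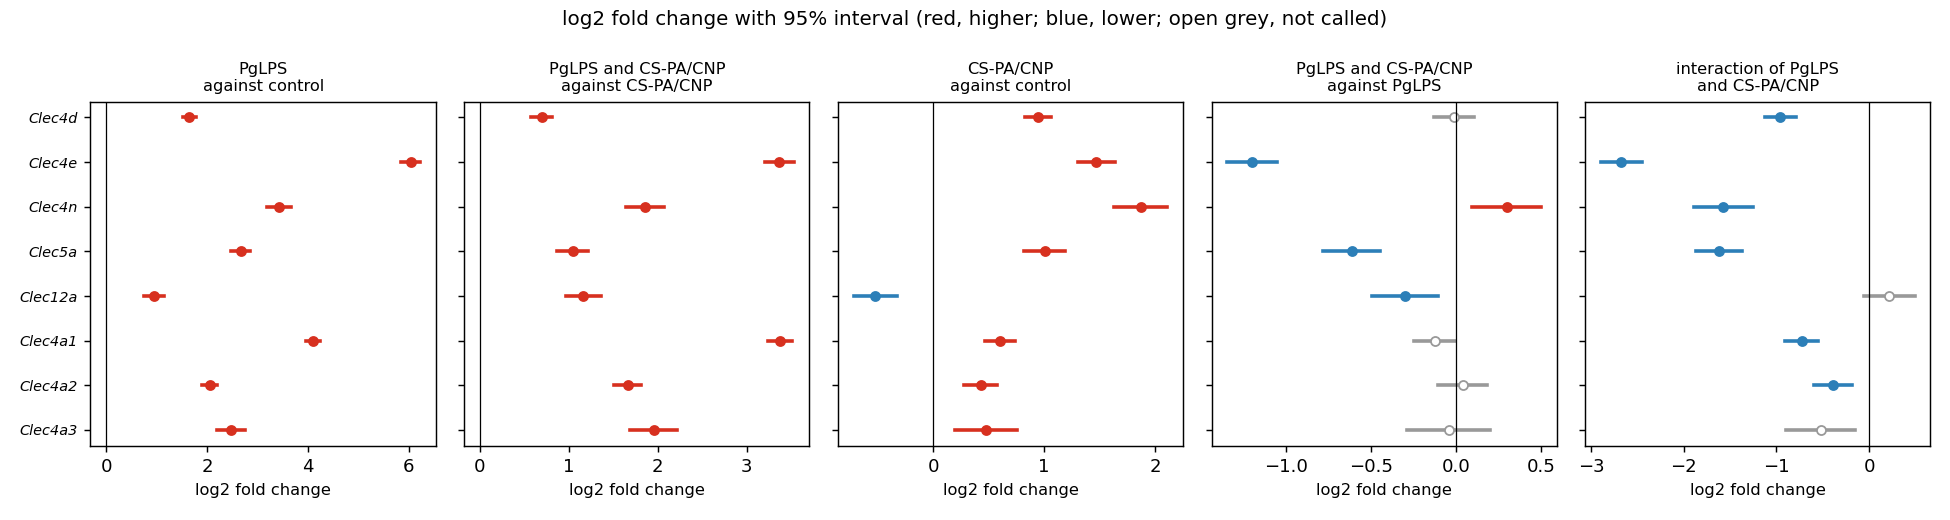
Log2 fold change with its 95% interval for each receptor gene in 4 of the comparisons and in the interaction (red, called higher; blue, called lower; open grey, not called; the axes differ between panels). Every gene lies right of 0 in the 2 left panels, Clec12a alone lies left of 0 for CS-PA/CNP against control, and Clec4e lies farthest left in the panels on both agents against PgLPS and the interaction.

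Clec4e (ENSMUSG00000030142), the receptor for cord factor, had the largest differences of the 8 in PgLPS against control, both agents against PgLPS and the interaction. It had 915, 840 and 888 CPM in the libraries with both agents, 2029, 2066 and 1985 CPM with PgLPS, 90.4, 77.5 and 88.6 CPM with CS-PA/CNP, and 34.7, 27.6 and 30.3 CPM in control. No group overlapped another. The log2 fold change was 6.04 ± 0.09 (SE) in PgLPS against control, or 65.7-fold (edgeR BH-adjusted p = 2.4e-20), and 1.47 ± 0.08 in CS-PA/CNP against control, or 2.77-fold (edgeR BH-adjusted p = 2.8e-10). With both agents Clec4e was 2.30-fold lower than with PgLPS, a log2 difference of −1.20 ± 0.07 (edgeR BH-adjusted p = 5.1e-10). CS-PA/CNP thus went with more Clec4e message in cells without PgLPS and less in cells with it. The test of that difference gave −2.67 ± 0.11 (edgeR BH-adjusted p = 9.1e-12), or 6.38-fold. Relative to CS-PA/CNP alone, both agents left Clec4e 10.3-fold higher, and relative to control 28.6-fold higher.

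Clec4d (ENSMUSG00000030144), whose product pairs with that of Clec4e, did not follow it beside PgLPS. Its levels were 1590, 1638 and 1505 CPM with both agents, 1494, 1693 and 1587 CPM with PgLPS, 953, 1004 and 967 CPM with CS-PA/CNP, and 489, 511 and 519 CPM in control. The groups with both agents and with PgLPS overlapped, and every other pair of groups stood apart. Clec4d was 3.14-fold higher with PgLPS than in control, a log2 difference of 1.65 ± 0.06 (edgeR BH-adjusted p = 5.4e-15), and 1.92-fold higher with CS-PA/CNP than in control, at 0.94 ± 0.06 (edgeR BH-adjusted p = 1.3e-09). Between both agents and PgLPS the difference was −0.01, with a 95% interval of −0.13 to 0.10 (edgeR BH-adjusted p = 0.908), and its sign turned under library totals. The interaction was −0.96 ± 0.08 (edgeR BH-adjusted p = 5.7e-08), with an effect of CS-PA/CNP of −0.01 beside PgLPS and 0.94 in control cells.

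Per kilobase of gene length, the ratio of Clec4e to Clec4d was 0.180 ± 0.013 with both agents, 0.411 ± 0.023 with PgLPS, 0.0283 ± 0.0030 with CS-PA/CNP and 0.0197 ± 0.0028 in control (SD, n = 3). The 3 ratios with both agents, 0.165 to 0.190, lay below the 3 with PgLPS, 0.393 to 0.437. Those with CS-PA/CNP, 0.0249 to 0.0305, lay just above those in control, 0.0174 to 0.0228. Per kilobase, the pair was thus most even with PgLPS alone, with Clec4d the higher of the 2 in every library. With PgLPS that order rests on the deposited lengths, 4965 bases for Clec4e and 1599 for Clec4d. In CPM without division by length, Clec4e was the higher with PgLPS, at a mean of 2027 against 1592.

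Clec4n (ENSMUSG00000023349), the mannose-binding receptor Dectin-2 and the last of the Fcer1g-coupled genes, was the only one of the 8 called higher with both agents than with PgLPS. It had 184, 153 and 175 CPM with both agents, 140, 121 and 155 CPM with PgLPS, 52.0, 40.9 and 48.4 CPM with CS-PA/CNP, and 11.5, 13.3 and 13.8 CPM in control. One library with both agents lay inside the range of the PgLPS libraries, and the other groups did not overlap. With CS-PA/CNP alone Clec4n was 3.65-fold higher than in control, the largest response of the 8 genes to it, at 1.87 ± 0.12 on the log2 scale (edgeR BH-adjusted p = 1.9e-09). With PgLPS it was 10.8-fold higher than in control, at 3.43 ± 0.12 (edgeR BH-adjusted p = 3.7e-15), and with both agents 13.2-fold higher than in control. The difference between both agents and PgLPS was 0.30 ± 0.10 (edgeR BH-adjusted p = 0.0375). That call was lost without PgLPS library 1 or 2 or without library 1 or 3 of both agents, where the adjusted p was 0.0685 to 0.158. The interaction was −1.57 ± 0.15 (edgeR BH-adjusted p = 3.9e-07), so the fold response to CS-PA/CNP was smaller beside PgLPS than in control cells, although it kept its direction. In CPM, the means were 171 with both agents against 139 with PgLPS, and 47.1 with CS-PA/CNP against 12.9 in control.

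Clec5a (ENSMUSG00000029915), the Tyrobp-coupled receptor, had the order of groups seen for Clec4e. The means of Clec4d, Clec4a1 and Clec4a3 had that order too, but their libraries with both agents overlapped those with PgLPS. Clec5a had 113, 110 and 114 CPM with both agents, 179, 170 and 168 CPM with PgLPS, 53.5, 52.7 and 57.2 CPM with CS-PA/CNP, and 28.4, 22.6 and 30.6 CPM in control. No group overlapped another. It was 6.34-fold higher with PgLPS than in control, at 2.66 ± 0.09 (edgeR BH-adjusted p = 2.7e-15), and 2.01-fold higher with CS-PA/CNP than in control, at 1.005 ± 0.09 (edgeR BH-adjusted p = 1.7e-07). With both agents it was 1.53-fold lower than with PgLPS, at −0.62 ± 0.08 (edgeR BH-adjusted p = 1.4e-05). The interaction was −1.62 ± 0.12 (edgeR BH-adjusted p = 1.2e-08), 3.07-fold.

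Clec12a (ENSMUSG00000053063), the inhibitory receptor MICL, was the 1 gene of the 8 that fell with CS-PA/CNP alone. It had 596, 691 and 551 CPM with both agents, 727, 830 and 711 CPM with PgLPS, 237, 313 and 271 CPM with CS-PA/CNP, and 376, 416 and 385 CPM in control. The 3 CS-PA/CNP libraries lay below the 3 control libraries, and the 3 libraries with both agents below the 3 with PgLPS. Clec12a was 1.43-fold lower with CS-PA/CNP than in control, at −0.52 ± 0.09 (edgeR BH-adjusted p = 7.4e-04), and 1.93-fold higher with PgLPS than in control, at 0.95 ± 0.09 (edgeR BH-adjusted p = 4.5e-08), the smallest response to PgLPS among the 8. Between both agents and PgLPS it was lower by 1.23-fold, at −0.30 ± 0.09 (edgeR BH-adjusted p = 0.0260). The adjusted p of that difference was 0.0553 under library totals, 0.0913 when PgLPS library 2 was left out, and 0.0890 or 0.132 when library 1 or 3 of both agents was. Its interaction of 0.22, with a 95% interval of −0.06 to 0.49, was not called (edgeR BH-adjusted p = 0.329), and the interval includes no difference between the effects of CS-PA/CNP in the 2 settings.

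Clec4a2 (ENSMUSG00000030148), the inhibitory receptor DCIR, differed mainly with PgLPS. It had 389, 434 and 375 CPM with both agents, 372, 409 and 387 CPM with PgLPS, 118, 131 and 130 CPM with CS-PA/CNP, and 88.8, 101 and 91.3 CPM in control. The groups with both agents and with PgLPS overlapped, and the others did not. It was 4.15-fold higher with PgLPS than in control (log2 2.05 ± 0.07, edgeR BH-adjusted p = 7.6e-15) and 1.35-fold higher with CS-PA/CNP than in control (log2 0.43 ± 0.07, edgeR BH-adjusted p = 3.4e-04). Between both agents and PgLPS the log2 difference was 0.04, with a 95% interval of −0.11 to 0.18 (edgeR BH-adjusted p = 0.763). The interaction was −0.39 ± 0.10 (edgeR BH-adjusted p = 0.0092). Of the 50-base words in its transcripts, 6.83% also occurred in another gene, mostly Clec4a4 and Clec4b1, so a small part of its reads could be shared, while the share was at most 0.686% for the other 7 genes.

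Its relative Clec4a1 (ENSMUSG00000049037) had the second largest response to PgLPS among the 8. It had 499, 551 and 478 CPM with both agents, 557, 568 and 543 CPM with PgLPS, 49.9, 49.4 and 48.7 CPM with CS-PA/CNP, and 32.5, 33.4 and 31.4 CPM in control. Library 2 with both agents fell inside the range of the PgLPS libraries. Clec4a1 was 17.1-fold higher with PgLPS than in control, at 4.10 ± 0.07 on the log2 scale (edgeR BH-adjusted p = 1.1e-19), and 1.52-fold higher with CS-PA/CNP than in control, at 0.60 ± 0.06 (edgeR BH-adjusted p = 2.3e-06). The difference between both agents and PgLPS was −0.13, with a 95% interval of −0.25 to −0.01 before adjustment (edgeR BH-adjusted p = 0.140), and leaving out the second library of both agents gave −0.19 (edgeR BH-adjusted p = 0.0267). The interaction was −0.73 ± 0.09 (edgeR BH-adjusted p = 5.5e-06).

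Clec4a3 (ENSMUSG00000043832), next to Clec4a1 on the chromosome, was the member whose calls with CS-PA/CNP were least firm. It had 95.3, 128 and 95.3 CPM with both agents, 105, 118 and 106 CPM with PgLPS, 25.2, 32.5 and 24.9 CPM with CS-PA/CNP, and 18.3, 22.9 and 18.0 CPM in control. The range with both agents enclosed that with PgLPS. It was 5.55-fold higher with PgLPS than in control, at 2.47 ± 0.13 (edgeR BH-adjusted p = 3.8e-12). With CS-PA/CNP it was 1.39-fold higher than in control, at 0.48 ± 0.13 (edgeR BH-adjusted p = 0.0237), but the adjusted p was 0.118 without control library 1, 0.111 without control library 3 and 0.155 without CS-PA/CNP library 2. Between both agents and PgLPS the difference was −0.04, with a 95% interval of −0.29 to 0.20 (edgeR BH-adjusted p = 0.848), and its sign turned under library totals. The interaction of −0.52 ± 0.18 missed the threshold (edgeR BH-adjusted p = 0.0549), while DESeq2 gave a BH-adjusted p of 0.0382.

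Levels per kilobase allow the 8 genes to be set beside each other. Clec4d was the highest in every group, at 987 ± 42 CPM per kilobase with both agents, 995 ± 62 with PgLPS, 610 ± 16 with CS-PA/CNP and 317 ± 9.7 in control (SD, n = 3). It made up 50.1% of the summed level of the 8 with both agents, 44.1% with PgLPS, 74.4% with CS-PA/CNP and 66.3% in control. Clec4e changed place most. It ranked 3 with both agents at 177 ± 7.6 CPM per kilobase, 2 with PgLPS at 408 ± 8.2, 7 with CS-PA/CNP at 17.2 ± 1.4, and 8 in control at 6.21 ± 0.73. Its share of the sum was 9.04% with both agents, 18.1% with PgLPS, 2.11% with CS-PA/CNP and 1.30% in control. Clec12a was second in control at 71.0 ± 3.7 CPM per kilobase, 14.9% of the sum, and held 5.62% with both agents, 6.06% with PgLPS and 6.03% with CS-PA/CNP. Clec5a was the lowest with both agents (29.3 ± 0.55 CPM per kilobase), with PgLPS (44.8 ± 1.5) and with CS-PA/CNP (14.2 ± 0.62). In control it overlapped Clec4e, at 7.08 ± 1.1.

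**Figure D3:**
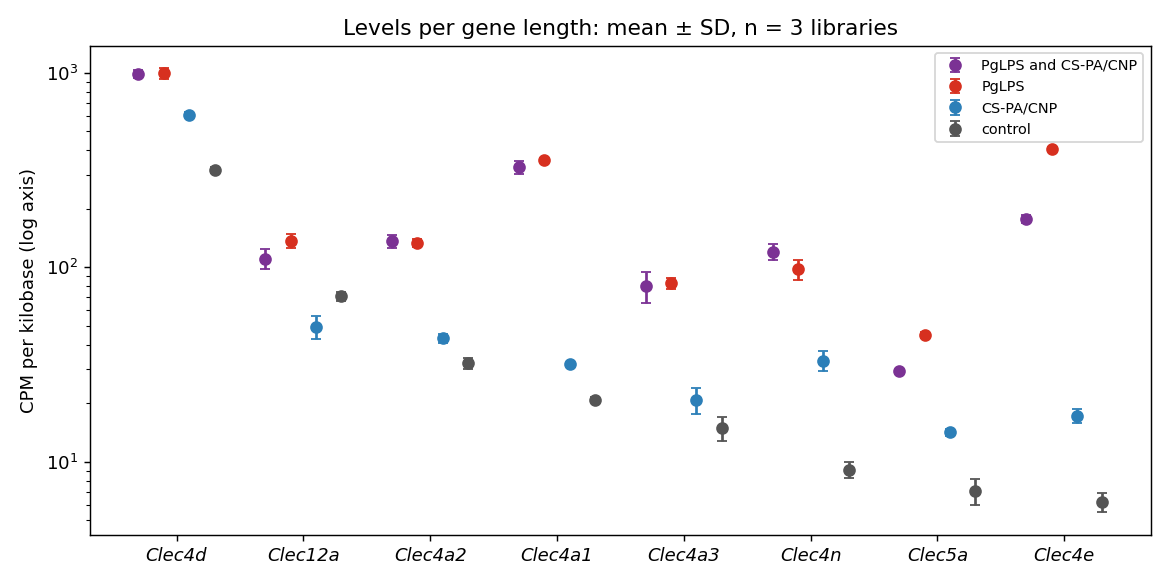
Level of the 8 receptor genes in CPM per kilobase on a log axis, genes ordered by their control level (points and bars, mean ± SD, n = 3). Clec4d is highest in every group, and Clec4e spans the widest range, with 6.21 in control and 408 with PgLPS.

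In that order several neighbours did not differ beyond their spread over libraries. With both agents Clec4n, at 120 ± 11 CPM per kilobase, overlapped Clec4a2 above it at 136 ± 11 and Clec12a below it at 111 ± 13, while Clec4a2 and Clec12a stood apart. With PgLPS Clec12a overlapped Clec4a2 at 137 ± 12 and 133 ± 6.4, and Clec4n overlapped Clec4a3 at 97.6 ± 12 and 82.7 ± 5.6. With CS-PA/CNP Clec12a overlapped Clec4a2 at 49.5 ± 6.8 and 43.1 ± 2.5, and Clec4n overlapped Clec4a1 at 33.2 ± 4.0 and 31.6 ± 0.39. In control Clec5a overlapped Clec4e. The other neighbours in each group stood apart.

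The adaptors and kinases through which these receptors signal were also mostly higher with PgLPS. Of 19 such genes, all tested, 15 were higher and 1 lower than in control, with a median log2 fold change of 0.79. The shares among all tested genes were 32.2% and 31.6%. Syk, the kinase that docks on the adaptor chains, was at 939 ± 42 CPM with both agents, 1305 ± 17 with PgLPS, 366 ± 12 with CS-PA/CNP and 306 ± 1.3 in control (SD, n = 3). It was higher by 2.09 ± 0.05 with PgLPS than in control (edgeR BH-adjusted p = 4.0e-17), as were the Src-family kinases Src at 3.62 ± 0.10 (edgeR BH-adjusted p = 1.2e-16) and Lyn at 1.92 ± 0.05 (edgeR BH-adjusted p = 6.9e-17), which act upstream of Syk. Malt1, the protease of the Card9 complex, was higher by 2.82 ± 0.11 (edgeR BH-adjusted p = 1.9e-14). With both agents 9 of the 19 were lower than with PgLPS and 1 was higher, with a median of −0.25. Among all tested genes, 10.0% were lower and 9.42% higher in that comparison. Malt1 fell the most, to 174 ± 24 CPM with both agents, against 404 ± 32 CPM with PgLPS, a log2 difference of −1.21 ± 0.10 (edgeR BH-adjusted p = 3.7e-08). Src stood at −0.71 ± 0.08, Syk at −0.47 ± 0.05 and Lyn at −0.41 ± 0.05 in that comparison (edgeR BH-adjusted p = 3.7e-06, 1.1e-06 and 4.3e-06).

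With CS-PA/CNP alone 6 of the 19 were higher than in control and the other 13 were not called (median 0.09). Among all tested genes, 6.67% were higher and 5.61% lower. The 6 were led by the kinases Fgr at 0.85 ± 0.11 (edgeR BH-adjusted p = 3.1e-05), Src at 0.62 ± 0.10 (edgeR BH-adjusted p = 3.8e-04), Prkcd at 0.36 ± 0.05 (edgeR BH-adjusted p = 4.2e-05) and Syk at 0.26 ± 0.05 (edgeR BH-adjusted p = 0.0015). The interaction was lower for 10 of the 19 and higher for 1 (median −0.40), beside 8.34% and 7.46% of all tested genes. Src stood at −1.33 ± 0.13, Malt1 at −1.23 ± 0.14, Syk at −0.73 ± 0.07 and Lyn at −0.57 ± 0.07 (edgeR BH-adjusted p of 5.5e-06 or less for each). Both agents against control called 13 higher and 1 lower (median 0.51), beside 29.7% and 28.4% of all tested genes. Both agents against CS-PA/CNP called 14 higher and 1 lower (median 0.37), beside 26.6% and 25.4%. Syk, Lyn, Src and the exchange factor gene Vav1 were among the higher genes in both.

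The adaptor chains themselves are named because the receptors bind them, after their values were seen. Fcer1g, the partner of Clec4d, Clec4e and Clec4n, was at 963 ± 61 CPM with both agents, 1269 ± 131 with PgLPS, 497 ± 16 with CS-PA/CNP and 497 ± 32 in control (SD, n = 3). It was higher with PgLPS than in control by 1.35 ± 0.07 (edgeR BH-adjusted p = 5.1e-12) and lower with both agents than with PgLPS, at −0.40 ± 0.07 (edgeR BH-adjusted p = 4.2e-04). Tyrobp, the partner of Clec5a, was at 524 ± 33 CPM with both agents, 515 ± 91 with PgLPS, 617 ± 61 with CS-PA/CNP and 579 ± 48 in control. Its differences were not called in any comparison, with −0.17 ± 0.10 in PgLPS against control (edgeR BH-adjusted p = 0.149), beside the 6.34-fold difference of Clec5a. Card9, which links Syk to Malt1, was higher with PgLPS than in control by 0.37 ± 0.09 (edgeR BH-adjusted p = 0.0017).

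**Figure D4:**
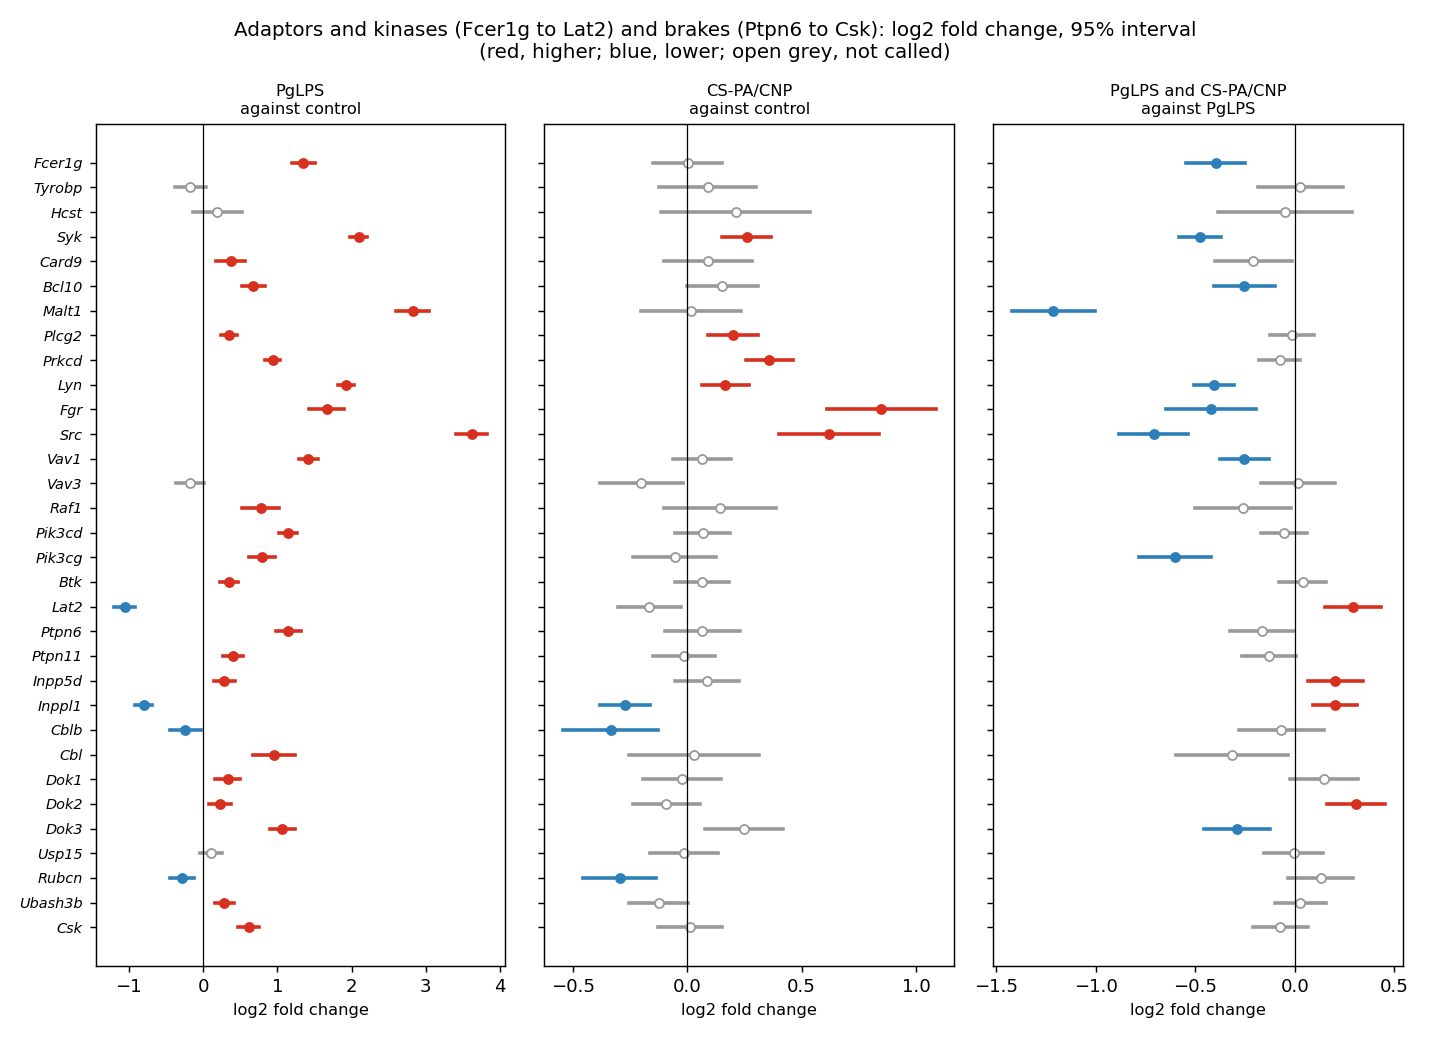
Log2 fold change with its 95% interval for the 19 adaptors and kinases (top, Fcer1g to Lat2) and the 13 brakes (bottom, Ptpn6 to Csk) in PgLPS against control, CS-PA/CNP against control, and both agents against PgLPS (red, called higher; blue, called lower; open grey, not called; the axes differ between panels). The blue points of the upper block in the right panel are the 9 genes lower with both agents than with PgLPS.

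Phosphatases, ubiquitin ligases and other brakes on this signalling, 13 genes in all, were followed as well. With PgLPS 9 were higher and 3 lower than in control (median 0.29), beside 32.2% and 31.6% of all tested genes. Ptpn6, the phosphatase SHP-1 that docks on the inhibitory receptors, was higher by 1.15 ± 0.08 (edgeR BH-adjusted p = 1.7e-10), the docking protein gene Dok3 by 1.07 ± 0.08 (edgeR BH-adjusted p = 8.7e-10) and Csk, the kinase that shuts off Src kinases, by 0.61 ± 0.07 (edgeR BH-adjusted p = 1.5e-07). Inppl1, the lipid phosphatase SHIP2, fell to 158 ± 3.5 CPM with PgLPS, against 276 ± 3.6 CPM in control (edgeR BH-adjusted p = 1.2e-10). With both agents 3 of the 13 were higher than with PgLPS and 1 lower (median −0.01), beside 9.42% and 10.0% of all tested genes. Dok2 was higher by 0.31 ± 0.07 (edgeR BH-adjusted p = 0.0035), Inppl1 by 0.20 ± 0.05 (edgeR BH-adjusted p = 0.0105) and Inpp5d, the lipid phosphatase SHIP1, by 0.20 ± 0.07 (edgeR BH-adjusted p = 0.0352), and Dok3 was lower at −0.29 ± 0.08 (edgeR BH-adjusted p = 0.0125). With CS-PA/CNP alone 3 were lower than in control and the other 10 were not called (median −0.01). Among all tested genes, 5.61% were lower and 6.67% higher. Inppl1 stood at −0.27 ± 0.05, Rubcn at −0.30 ± 0.08 and Cblb at −0.33 ± 0.10 (edgeR BH-adjusted p = 0.0013, 0.0132 and 0.0330).

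The interaction of these brakes was higher for 3 and lower for 1 (median 0.12), beside 7.46% and 8.34% of all tested genes. Inppl1 stood at 0.47 ± 0.07 (edgeR BH-adjusted p = 1.4e-04), Rubcn at 0.43 ± 0.11 (edgeR BH-adjusted p = 0.0096), Dok2 at 0.40 ± 0.10 (edgeR BH-adjusted p = 0.0080) and Dok3 at −0.54 ± 0.11 (edgeR BH-adjusted p = 0.0021). Both agents against control called 9 higher and 2 lower (median 0.48), beside 29.7% and 28.4% of all tested genes, with Ptpn6 at 0.99 ± 0.08. Both agents against CS-PA/CNP called 9 higher and 1 lower (median 0.44), beside 26.6% and 25.4%. Dok2 stood at 0.63 ± 0.07 there and Ubash3b, a phosphatase that acts on Syk, at 0.44 ± 0.06.

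Other C-type lectin genes did not move as one with PgLPS. Of 25 on the list, 16 passed the filter on low counts. Of these 7 were higher and 5 lower with PgLPS than in control (median 0.71), beside 32.2% and 31.6% of all tested genes. Cd302 was at 183 ± 15 CPM with both agents, 262 ± 2.9 with PgLPS, 69.8 ± 5.6 with CS-PA/CNP and 39.4 ± 1.9 in control (SD, n = 3), which is the group order of Clec4e. Cd69, an early activation marker, was higher by 6.34 ± 0.25 with PgLPS than in control (edgeR BH-adjusted p = 3.2e-14), and Clec2d by 2.72 ± 0.10 (edgeR BH-adjusted p = 1.9e-14). Cd69 had only 7 to 14 reads a library in control. Clec10a, a galactose-type lectin associated with alternative activation, went the other way, with 0.718 ± 0.12 CPM with PgLPS against 13.9 ± 0.82 CPM in control, a log2 difference of −4.28 ± 0.19 (edgeR BH-adjusted p = 3.6e-13).

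With both agents 5 of the 16 were higher than with PgLPS and 3 lower (median 0.08), beside 9.42% and 10.0% of all tested genes. Clec10a was higher by 1.23 ± 0.26 (edgeR BH-adjusted p = 0.0020) and the scavenger receptor gene Colec12 by 0.68 ± 0.09 (edgeR BH-adjusted p = 9.7e-06). The Clec10a value rests on few reads, 21 to 31 a library with both agents and 10 to 11 with PgLPS. Cd302 was lower at −0.52 ± 0.07 (edgeR BH-adjusted p = 2.1e-05) and Olr1, the receptor for oxidised low-density lipoprotein, at −1.36 ± 0.20 (edgeR BH-adjusted p = 5.6e-05). CS-PA/CNP alone gave 4 higher and 3 lower (median 0.03), beside 6.67% and 5.61% of all tested genes. Cd302 was higher by 0.83 ± 0.07 (edgeR BH-adjusted p = 2.8e-07) and Olr1 by 2.25 ± 0.43 (edgeR BH-adjusted p = 0.0013), while Mrc1, the mannose receptor, stood at −0.52 ± 0.08 (edgeR BH-adjusted p = 9.1e-05) and Cd72, an inhibitory receptor also found on B cells, at −0.71 ± 0.11 (edgeR BH-adjusted p = 1.7e-04). Olr1 had few reads, 30 to 34 a library with CS-PA/CNP and 5 to 8 in control.

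Of the same 16 genes, the interaction was higher for 7 and lower for 5 (median 0.64), beside 7.46% and 8.34% of all tested genes. Colec12 stood at 0.81 ± 0.11, Mrc1 at 0.75 ± 0.11, Cd302 at −1.34 ± 0.10 and Olr1 at −3.61 ± 0.46 (edgeR BH-adjusted p of 6.0e-05 or less for each). The Olr1 value rests in part on its few reads in the groups without PgLPS. Both agents against control called 8 higher and 4 lower (median 1.02), beside 29.7% and 28.4% of all tested genes. Both agents against CS-PA/CNP called 9 higher and 4 lower (median 1.32), beside 26.6% and 25.4%, with Cd72 at 2.11 ± 0.11 among the higher. Clec4b1, singled out after its values were seen because it adjoins Clec4a2 on the chromosome, was lower with PgLPS than in control at −1.33 ± 0.25 (edgeR BH-adjusted p = 1.6e-04), beside the 4.15-fold higher level of Clec4a2.

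Among 9563 tested genes that reached 5 CPM in at least 1 group, the genes with the pattern most like each receptor were found by the root mean square difference of centred log2 levels over the 12 libraries, which share their depth and scaling. Genes without a symbol, or with a Rik, clone-type or Gm-and-digits symbol, had been left out of the 9563. The nearest to Clec4a1 was Ly6e, at 0.060 log2 units, followed by Lgals9 and Pnp. Clec4d was nearest to Tnfaip2 (0.083), Cd82 and Fth1, and Clec12a to Btg2 (0.091), Fnbp1l and Sh3bgrl. Btg2 had 25.9 CPM with both agents, 36.2 with PgLPS, 11.7 with CS-PA/CNP and 16.9 in control, so it too was lowest with CS-PA/CNP.

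Clec4e had the loosest match of the 8, with Ptgs2, the inducible cyclooxygenase, at 0.271, then C3 and Siglece. Ptgs2 had 37.8 CPM with both agents, 76.2 with PgLPS, 3.56 with CS-PA/CNP and 1.13 in control. Clec4n was nearest to Procr (0.138), Sema4a and Fas, and Procr, like Clec4n, had its highest mean level with both agents, 290 CPM against 231 CPM with PgLPS. Clec5a was nearest to Pstpip2 (0.140), Nfkbia and Rnd3, Clec4a2 to Nampt (0.106), Tapbpl and Slc11a2, and Clec4a3 to Nr1h3 (0.140), Lrrc25 and Irf1. Among the receptors themselves the closest pair was Clec4a2 and Clec4a3 at 0.201, and the most distant was Clec4e and Clec12a at 1.98.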

How the data were processed

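The authors deposited unnormalized, whole-number read counts of each gene for 12 libraries. Per the labels' protocols, total RNA gave libraries of 400 to 500 bp fragments after 15 PCR cycles. The tools HISAT2 2.0.5, HTSeq 0.9.1, DESeq 1.30.0 and cutadapt 1.15 are listed without roles, per the submitters' processing notes. Genome build, annotation and strandedness were not given in the sources used here. Reads from genes that overlap on opposite strands could not be separated. No exon of the 8 receptor genes overlapped another gene in the GENCODE annotation. A further 12 columns of FPKM values were not used.

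Count columns were put in groups by their letters (LM for both agents, L for PgLPS, M for CS-PA/CNP, C for control), a reading the labels do not state. Library numbers are those of the columns, since the titles' replicate numbers could not be matched to them. No pair of libraries in a group agreed within sampling noise (chi-square per gene 2.77 to 17.4).

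One fit of edgeR 4.0.16 in R 4.3.3 held all 12 libraries with a mean per group, TMM factors and the filterByExpr filter, whose genes held 99.97% of reads. The quasi-likelihood test gave 2-sided p-values for 6 comparisons, BH-adjusted over 11656 genes at 0.05. The test was also run on simulated counts in which few genes differed. Such counts do not check it where many genes differ, as in PgLPS against control. Errors of log2 fold changes are standard errors. Alternatives were library totals, DESeq2's size factors, DESeq2 1.42.0, no filter, only the compared groups, each library left out, and the column number as a block. Levels per kilobase used the deposited gene length. Up to 4 called genes with the smallest adjusted p per comparison were named from each of 3 lists (other C-type lectin genes, adaptors and kinases, of which 1 is not reported here, and brakes), and likeness used a pseudocount of 0.5 CPM. The receptors, lists and markers were chosen with earlier results of these data known.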

Additional observations from a re-analysis of the deposited data

Results flagged for a closer look

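The effect of CS-PA/CNP differed between cells with PgLPS and cells without it for 6 of the 8 receptor genes, by the interaction term of the edgeR fit. Among all tested genes, that term was called higher for 7.46% and lower for 8.34%. On the log2 scale, the effect beside PgLPS minus the effect in control cells was −2.67 for Clec4e (edgeR BH-adjusted p = 9.1e-12), −1.62 for Clec5a (edgeR BH-adjusted p = 1.2e-08), −1.57 for Clec4n (edgeR BH-adjusted p = 3.9e-07), −0.96 for Clec4d (edgeR BH-adjusted p = 5.7e-08), −0.73 for Clec4a1 (edgeR BH-adjusted p = 5.5e-06) and −0.39 for Clec4a2 (edgeR BH-adjusted p = 0.0092). Clec4e and Clec5a were called in opposite directions in the 2 settings, lower beside PgLPS and higher without it. Clec4n was called higher in both, and Clec4d, Clec4a1 and Clec4a2 were called higher without PgLPS and not called beside it.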

How the results depend on the processing

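Of 616 recomputed fold changes of the 8 receptor genes over 18 alternative settings, 589 kept their direction and their side of the threshold, and 148 of 154 recomputed counts of called receptor genes stayed within 1.5 times. In both agents against PgLPS, the count of receptor genes higher was 0 with only the compared groups in the fit and 0 to 1 over the fits that left out a library, since Clec4n lost its call (edgeR BH-adjusted p = 0.0535 with only the compared groups). The uncalled fold changes of that comparison turned their sign for Clec4d (0.0394) and Clec4a3 (0.00746) with library totals. Leaving out a library gave −0.0557 to 0.0338 for Clec4d, positive without library 2 of PgLPS or 3 of both agents. It gave −0.203 to 0.0297 for Clec4a3, positive without library 2 of PgLPS or 1 or 3 of both agents, and −0.0258 to 0.0824 for Clec4a2, negative without library 2 of both agents. The cause was not tested. Pairing by the column numbers rested on no label, 9 of 18 same-numbered pairs correlated above 0.1 (−0.09 to 0.32), and 8 of 12 libraries correlated best with their own number. With the number as a replicate block, the count of receptor genes with a higher interaction was 1, Clec12a at 0.22 (edgeR BH-adjusted p = 0.0374), and Clec4a3 was called at −0.53 (edgeR BH-adjusted p = 2.0e-04), as it was with no filter, DESeq2, or without control library 2 or library 2 of both agents.

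With library totals in place of TMM, genes called higher and lower were 1945 and 6963 in PgLPS against control (3750 and 3683 with TMM), 1808 and 6685 in both agents against control (3457 and 3305), and 1635 and 6413 in both agents against CS-PA/CNP (3097 and 2957). The share of calls that were higher was then 41.9% in CS-PA/CNP against control (54.3% with TMM), 21.8% in PgLPS against control (50.5%), 61.4% in both agents against PgLPS (48.4%), 21.3% in both agents against control (51.1%), 20.3% in both agents against CS-PA/CNP (51.2%) and 63.7% for the interaction (47.2%). CS-PA/CNP against control had 654 genes lower, but 417 without control library 1 and 406 without CS-PA/CNP library 3. With 3 libraries a group, a gene that was not called may still differ by any amount inside its printed interval.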
